A study of Mus musculus with 4 samples.

Results

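The genes of 8 microRNAs with roles in macrophages and other immune cells, Mir155, Mir146, Mir21a, Mir142, Mir22, Mir27a, Mir33 and Mir124a-1, were examined for SMAD4 binding in alveolar macrophages (AMs). They were chosen by name, with earlier results of these data known. All 8 were found among the 1228 curated RefSeq microRNA genes and the 26089 curated genes of the mouse build mm10. For each gene, the SMAD4 peaks whose summit lay within 50 kb of the annotated hairpin were taken, and a region was called shared when peaks of both replicates overlapped by at least 1 bp. This gave 16 of the 16369 peaks of replicate 1, 21 of the 19015 peaks of replicate 2 and 12 of the 10964 shared regions.

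AMs, the macrophages of the lung airspaces, came from lavages of adult wild-type C57BL/6J mice and were fixed with formaldehyde, sorted and sonicated. SMAD4 was precipitated with a mix of antibodies, and the chromatin on the beads was tagged with sequencing adapters by the transposase Tn5 (HT-ChIPmentation). The 4 samples are 2 SMAD4 libraries, named replicates 1 and 2 in order of accession, and 2 inputs, which enter here through the control level behind each peak. All samples share genotype and cell type, and no treatment is named, so no condition could be compared, and the sources do not say whether the replicates came from separate mice. At their summits the median peaks held 17 fragments in replicate 1 and 14 in replicate 2, over a genome-wide control level of 2.08 and 1.22 fragments. The fold enrichment of a peak is its fragments at the summit plus 1 over the control level plus 1, so the folds of the replicates depend on these levels and are set side by side, with no test between them. All 17 listed AM marker genes had a shared region within 50 kb of the gene. So did 4 of 10 marker genes of other cells and 41.8% of all curated genes. Both lists were chosen with earlier results of these data known, so these counts cannot check the cell label. Some regions may belong to neighboring genes, as Il18 and Plet1 had the same top region, in an intron of Pts. Binding near a gene is not expression, so the counts do not measure purity either.

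SMAD4 is the common partner that joins the receptor-activated SMADs after TGFβ or BMP signaling and binds DNA with them in the nucleus. MicroRNAs are cut from longer primary transcripts, first by the nuclear enzyme Drosha with its partner Dgcr8 into a hairpin and then by Dicer into a short RNA, which guides Argonaute proteins to messenger RNAs through its seed. SMADs are known to act on microRNAs both as transcription factors on the primary transcript and, for miR-21, by promoting the Drosha step. MiR-155 and miR-146a are induced by inflammatory signals in macrophages, where miR-155 favors inflammation and miR-146a restrains it by targeting Traf6 and Irak1. MiR-142 is specific to blood cells, miR-33 lowers the cholesterol exporter Abca1, and miR-124 is best known in neurons and resting microglia.

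The mature RNAs of these genes are shown because their seeds set them apart as separate families. They are RefSeq sequences of GRCm38.p6, the assembly that mm10 names, written 5′ to 3′ with bases 2 to 8, the seed, in capitals. Of the 8 genes, 7 had an entry, and 1 arm of each is printed. Mir124a-1 was not matched.
miR-21a-5p: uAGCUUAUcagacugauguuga
miR-155-5p: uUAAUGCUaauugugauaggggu
miR-146a-5p: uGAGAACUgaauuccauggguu
miR-142a-3p: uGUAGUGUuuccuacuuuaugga
miR-22-3p: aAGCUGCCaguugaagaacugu
miR-27a-3p: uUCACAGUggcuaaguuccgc
miR-33-5p: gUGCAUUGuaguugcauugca
The 14 arms of these 7 genes had 14 different seeds. MiR-146a-5p shared its seed with miR-146b-5p, miR-27a-3p with miR-27b-3p, and miR-21a-5p with miR-21c.

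A peak of replicate 1 lay within 50 kb of 5 of the 8 genes, compared with 49.2% of all curated genes and 39.0% of microRNA genes. The same 5 genes, Mir21a, Mir146, Mir142, Mir27a and Mir124a-1, had a peak of replicate 2 (all genes 55.9%, microRNA genes 47.0%). Shared regions were found near 4 genes, since the peaks near Mir142 did not overlap (all genes 41.8%, microRNA genes 33.6%). For the shares of all genes, here and below, distance was taken from the whole gene body, so long genes had wider windows than the hairpins. With 8 genes chosen by name and earlier results of these data known, these counts are a description and were not tested against the background. The regions were unevenly spread. Mir21a had 8, Mir124a-1 had 2, Mir146 and Mir27a had 1 each, and Mir155, Mir142, Mir22 and Mir33 had 0. The median was 0.5 regions for the 8 genes and 0 for all microRNA genes.

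**Figure D1:**
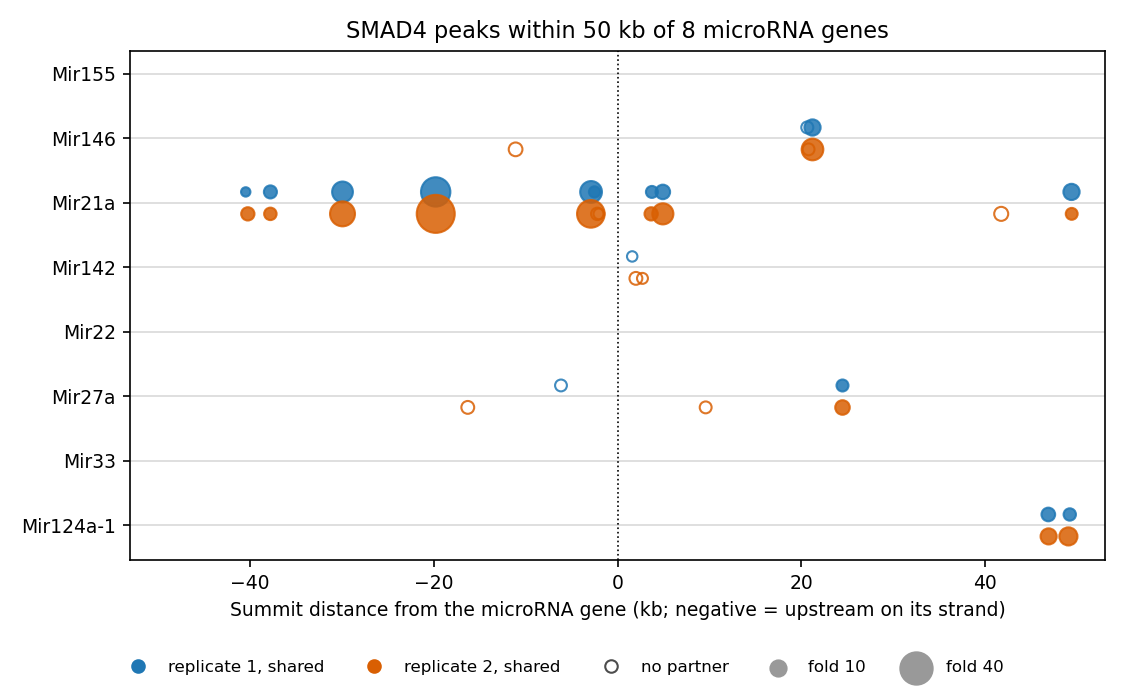
Position of every SMAD4 peak summit within 50 kb of each microRNA gene, in kb along the strand of the gene, with replicate 1 above and replicate 2 below each line, filled points for peaks with an overlapping partner and open points for peaks without, and point area proportional to fold enrichment. Mir21a holds 8 of the 12 shared regions and the highest folds, and the lines of Mir155, Mir22 and Mir33 are empty.

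Mir21a was the most densely bound of the 8 loci. The hairpin, on chromosome 11 at 86584067 to 86584158 on the minus strand, lies in exon 12 of 12 of Vmp1, the gene of an autophagy protein, in the part of that exon past the coding sequence. The curated Vmp1 start sites lie 87.0 to 99.7 kb upstream of the hairpin. All 9 peaks of replicate 1 in this window had a partner, as did 8 of the 11 peaks of replicate 2. Of the 8 shared regions, 5 were upstream of the hairpin and inside Vmp1 introns, and 3 were downstream. Among the 1228 microRNA genes, 2 had 8 or more shared regions (0.163%; 0.820% of all curated genes). The other was Mir7661, with 10, which is named because of this value. Neighboring microRNA genes share windows, so these genes are not independent.

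**Figure D2:**
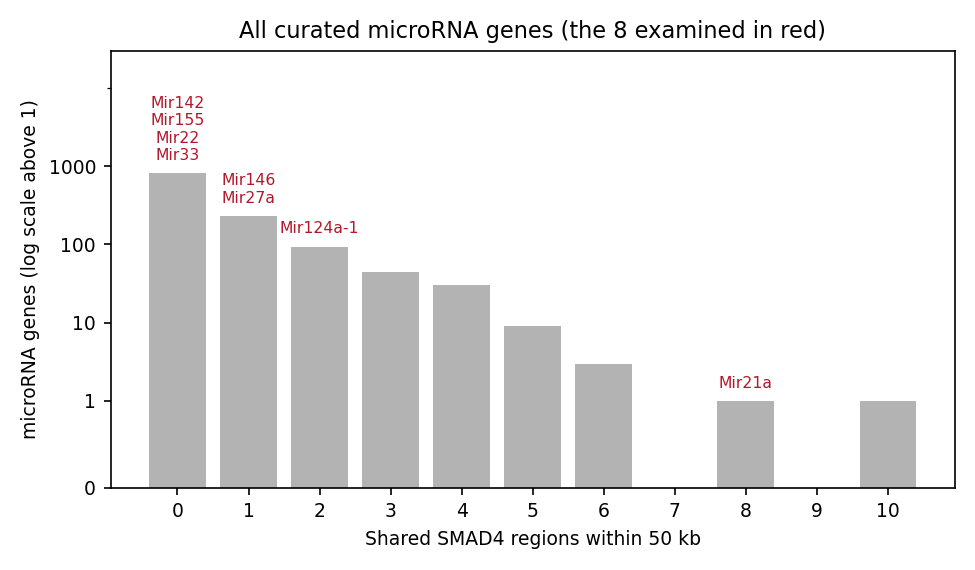
Number of curated microRNA genes (bars, log scale above 1) by the number of shared SMAD4 regions within 50 kb, with the 8 genes of interest named above the bar that holds them. Of the 1228 genes, 815 have 0 regions, as do 4 of the 8, while Mir21a has 8 and Mir7661 has 10.

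The strongest region of all 8 loci lay 19.8 kb upstream of Mir21a, in intron 9 of Vmp1. Its summit held 101 fragments in replicate 1 (exact 95% Poisson interval 82.3 to 123, which covers counting error only, as do all such intervals) and 122 in replicate 2 (101 to 146). The folds were 33.1 and 55.5, above 99.7% and 99.9% of the peaks of each list, and the summits of both replicates were 7 bp apart. By the smaller fold of both replicates it ranked 53 among the 10964 shared regions. Both libraries thus placed this region near the top of their lists.

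The shared region closest to the hairpin was 2.89 kb upstream, in intron 10 of Vmp1, and had 55 fragments in replicate 1 (41.4 to 71.6) and 64 in replicate 2 (49.3 to 81.7). Its folds of 18.2 and 29.3 were above 96.4% and 97.4% of the peaks of each list. Replicate 1 had a further weak peak within it. In replicate 2 a pair of small peaks with no partner lay closer to the hairpin, at 2.02 and 2.20 kb, with 9 and 12 fragments. The region 29.9 kb upstream, in intron 7, had the same summit base in both replicates, with 50 and 52 fragments and folds of 16.6 and 23.9. These 3 upstream regions were above 95% of the peaks in both lists.

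The other 5 regions near Mir21a were weaker. Within Vmp1 intron 7, a region 37.8 kb upstream had 26 and 16 fragments (folds 6.53 and 5.96), and a region 40.3 kb upstream had 13 and 14 (3.38 and 6.77). The second was above only 1.63% of the peaks of replicate 1 and 47.8% of those of replicate 2. At both of these sites the control level in replicate 1 was 3.14 fragments, above the genome-wide 2.08, and the summits of the second were 228 bp apart, the widest gap among the 12 regions. Downstream of the hairpin, past the end of Vmp1, a region at 4.93 kb had 24 and 37 fragments (folds 8.12 and 17.1) and a region at 3.70 kb had 16 and 14 (5.52 and 6.77). The last, 49.4 kb downstream in an intron of Rps6kb1, the gene of a kinase of the mTOR pathway, had 30 and 11 fragments (10.1 and 5.41). It is also the region closest to the limit of 50 kb. Replicate 2 had a further peak in this gene with no partner, 41.7 kb downstream of the hairpin, with 17 fragments and a fold of 7.54. The next peak outside the limit, over all 8 loci, was 64.0 kb downstream of Mir124a-1 with a fold of 4.84 in replicate 1.

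**Figure D3:**
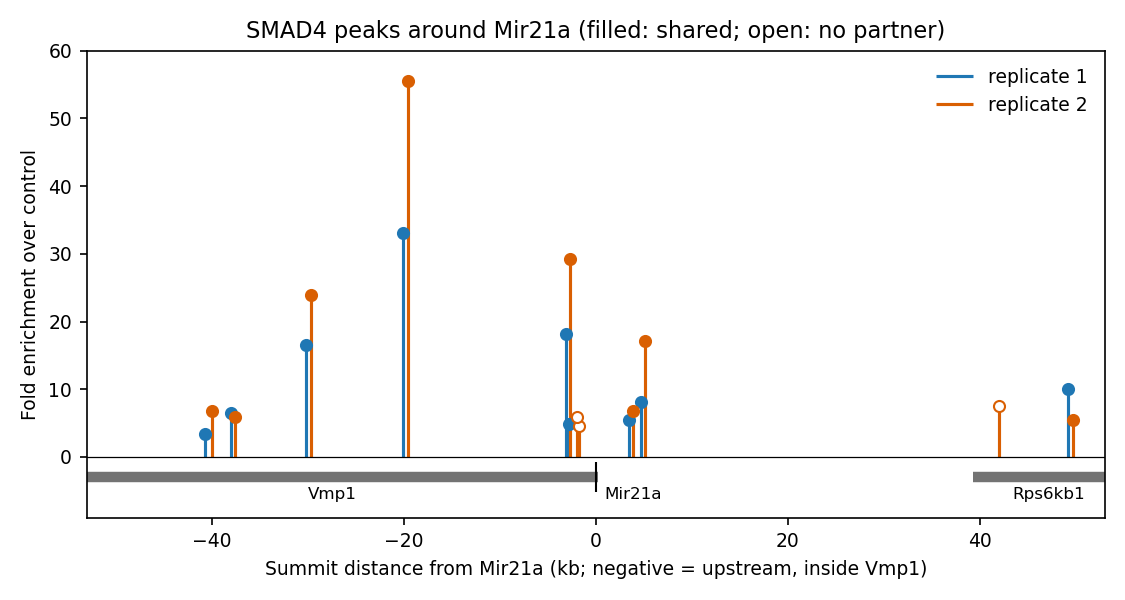
Fold enrichment over control (vertical axis) of each SMAD4 peak within 50 kb of Mir21a against its distance in kb along the strand of the gene, with replicate 1 in blue and replicate 2 in orange drawn slightly apart, filled points for shared peaks, open points for peaks without a partner, and gray bars for Vmp1 and Rps6kb1. The tallest pair, 19.8 kb upstream, reaches folds of 33.1 and 55.5, and the pairs 2.89 and 29.9 kb upstream are the next tallest on that side.

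By the nearest curated start site, the regions 2.89 and 19.8 kb upstream and those 3.70 and 4.93 kb downstream had Mir21a as their nearest gene, the 3 farther upstream had Gm11478, and the last had Rps6kb1. A peak does not show which of Mir21a and Vmp1 it acts on, and no expression was measured in these files. When distance was taken from the curated start sites of Vmp1 in place of the hairpin, 4 shared regions lay within 50 kb. These start sites lie 87 kb or more upstream, so the strong regions at 2.89, 19.8 and 29.9 kb are not among the 4. Of the regions described above, only those 37.8 and 40.3 kb upstream are within this reach, and the rest of the 4 were not described.

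The sequences at the 3 strong upstream regions of Mir21a are shown because they had the highest folds of the 12 shared regions in both replicates. Each is the 201 bp around the mean summit on the plus strand of mm10, 5′ to 3′, with the strings found there in capitals.
Mir21a, 2.89 kb upstream, chr11:86586946-86587146: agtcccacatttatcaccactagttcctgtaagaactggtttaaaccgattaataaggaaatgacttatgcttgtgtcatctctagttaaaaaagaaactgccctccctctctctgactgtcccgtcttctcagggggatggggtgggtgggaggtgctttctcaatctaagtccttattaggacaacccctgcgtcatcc
Mir21a, 19.8 kb upstream, chr11:86603833-86604033: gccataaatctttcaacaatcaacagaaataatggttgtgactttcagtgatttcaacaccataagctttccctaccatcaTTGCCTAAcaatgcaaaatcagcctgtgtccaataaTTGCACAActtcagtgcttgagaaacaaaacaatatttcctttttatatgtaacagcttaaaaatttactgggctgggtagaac
Mir21a, 29.9 kb upstream, chr11:86613971-86614171: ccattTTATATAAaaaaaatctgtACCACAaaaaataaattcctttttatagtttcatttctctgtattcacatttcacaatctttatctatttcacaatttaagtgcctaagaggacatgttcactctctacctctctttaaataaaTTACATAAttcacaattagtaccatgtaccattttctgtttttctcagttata
The capitals mark TTGCNNAA, a C/EBP string, the RUNX string TGTGGT, or their reverse complements. They also mark a second C/EBP string, here called alternating, of TT, alternating purines and pyrimidines over 4 bases, and AA. C/EBP and RUNX proteins are transcription factors of the macrophage lineage. The strongest region held 2 C/EBP strings, TTGCCTAA at 86603914 to 86603921 and TTGCACAA at 86603950 to 86603957. The region 29.9 kb upstream held no TTGCNNAA, but had TTATATAA and TTACATAA of the alternating form and a RUNX string. A string match does not show that the protein binds there. The region 2.89 kb upstream held none of the strings searched, which says only that these letters are not in this window.

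In all, 13 strings, besides the alternating C/EBP string, were searched on both strands in such windows of the 12 shared regions. The windows of all 10964 shared regions were searched as background. The SMAD string GTCTGG was in 4 of 12 windows and in 11.2% of all, and the shorter CAGAC, which every GTCTGG match contains on the other strand, was in 6 of 12 and 38.8%. With 200 bp on each side GTCTGG was still in 4 of 12, against 21.5% of all, and CAGAC was in 9, against 62.2%. The SMAD palindrome GTCTAGAC was in 0 of 12 and 0.465%. The GTCTGG matches were in the regions of Mir21a at 3.70 and 4.93 kb downstream and 40.3 kb upstream and in that of Mir124a-1 at 49.1 kb, and in none of the 3 strongest. TTGCNNAA was in 4 of 12 windows and 40.9% of all. The alternating C/EBP string, which overlaps it and was added after the data were seen, was in 5 of 12 and 23.6%. TGTGGT was in 3 windows (26.4% of all), the AP-1 string TGAGTCA in 2 (8.91%), and the ETS string CAGGAAGT (5.62%), the STAT string TTCNNNGAA (8.06%) and the nuclear receptor string AGGTCA (15.4%) in 1 each. The PU.1 string GAGGAAGT (8%), the E-box CACGTG (3.65%), the RBPJ string GTGGGAA (4.14%) and an NF-κB string (1.06%) were in 0 of 12, and with 200 bp on each side the RBPJ string was in 2 (8.49% of all) and the NF-κB string in 1 (1.73%). With 12 windows, of which 8 are at 1 locus, these counts are a description of the loci.

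Mir155 and Mir146 form a pair with opposed roles in inflammation, and the peaks near them differed. Mir155, on chromosome 16 at 84714140 to 84714204 on the plus strand, lies in exon 2 of 2 of its host gene Mir155hg. It had 0 peaks within 50 kb in either replicate. Its nearest peaks were 105 kb upstream in replicate 1 (fold 3.57, 10 fragments) and 154 kb upstream in replicate 2 (fold 6.32, 13 fragments), and its nearest shared region was 285 kb downstream, in an intron of App, the gene of the amyloid precursor protein.

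Mir146, which encodes miR-146a, lies on chromosome 11 at 43374397 to 43374461 on the minus strand, with no curated host gene and 1 other curated gene in the window, Pttg1. Its shared region was 21.2 kb downstream at 43352903 to 43353454, in intergenic sequence whose nearest curated start site is that of Mir146. The region had 30 fragments in replicate 1 (20.2 to 42.8) and 39 in replicate 2 (27.7 to 53.3), folds of 10.1 and 18, above 83.8% and 90.8% of the peaks of each list, and summits 9 bp apart. Each replicate had a weaker peak beside it, with 16 and 11 fragments. These end and begin next to each other, at 43353679 in replicate 2 and 43353681 in replicate 1, and were not counted as shared. Replicate 2 had a further peak 11.1 kb upstream at 43385478 to 43385646, with 15 fragments (8.40 to 24.7) and a fold of 7.22, whose summit lies at the start of Gm12148, a noncoding RNA gene that GENCODE places there on the opposite strand. No peak was called there in replicate 1.

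The window of the Mir146 region is shown because this was the strongest shared region outside the Mir21a locus. Its only string was TTACACAA at 43353189 to 43353196, of the alternating C/EBP form, in capitals.
Mir146, 21.2 kb downstream, chr11:43353124-43353324: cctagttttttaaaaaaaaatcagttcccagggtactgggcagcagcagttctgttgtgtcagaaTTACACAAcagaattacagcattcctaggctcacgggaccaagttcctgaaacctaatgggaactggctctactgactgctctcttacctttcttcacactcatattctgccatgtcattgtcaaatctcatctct

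**Figure D4:**
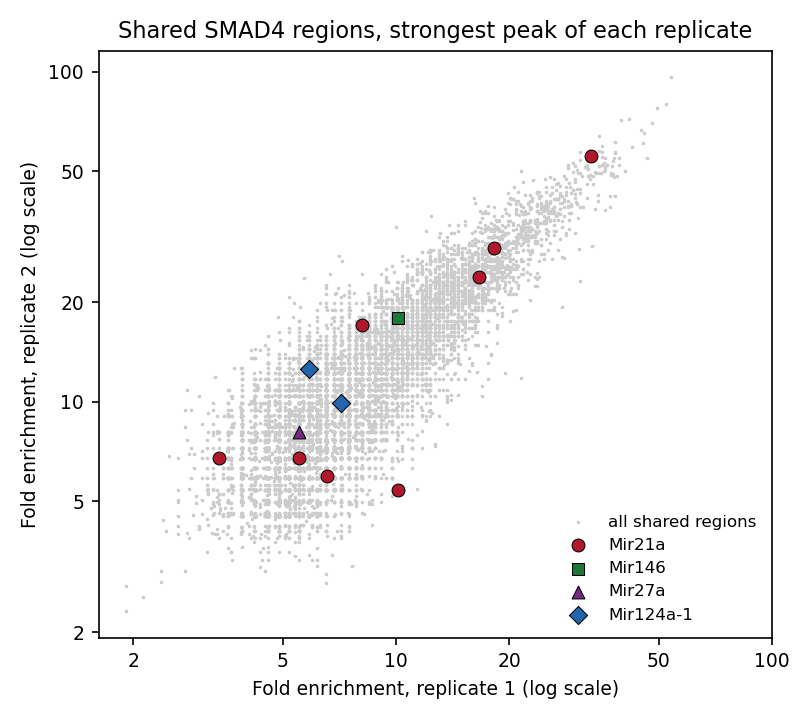
Fold enrichment in replicate 2 against replicate 1, both on log scales, of the strongest peak of each replicate in all 10964 shared regions (gray) and in the 12 near the microRNA genes (colored by gene). The 3 strongest regions of Mir21a lie toward the upper end. The other 9 lie among the bulk, except the Mir21a region with folds of 3.38 and 6.77, which is toward the lower end in replicate 1. In 2 of the Mir21a regions, with folds of 10.1 and 5.41 and of 6.53 and 5.96, the lower value is in replicate 2.

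Mir142, on chromosome 11 at 87756864 to 87756927 on the plus strand, had peaks close to the hairpin that did not overlap between the replicates. GENCODE places the hairpin in the noncoding host gene Mir142hg, and the antisense Mir142b covers it. Replicate 1 had 1 peak 1.60 kb downstream with 13 fragments (6.92 to 22.2) and a fold of 4.18. Replicate 2 had peaks 2 and 2.71 kb downstream, with 13 and 10 fragments and folds of 6.32 and 4.6, the second in the promoter of Tspoap1. All 3 summits thus lay downstream within 3 kb of the hairpin, between Mir142 and the start of Tspoap1. They were among the weaker peaks, above 12.8% of the list in replicate 1 and 41.8% and 13.2% in replicate 2. The nearest shared region of Mir142 was 102 kb upstream, in an intron of Hsf5.

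Mir27a is the middle hairpin of a cluster with Mir23a and Mir24-2 on chromosome 8 and lies at 84208672 to 84208758 on the plus strand. The cluster had 1 shared region within 50 kb, 24.4 kb downstream in an intron of Zswim4, with 16 and 17 fragments (9.15 to 26.0 and 9.90 to 27.2) and folds of 5.52 and 8.12. The nearest start site was that of Zswim4. The other peaks had no partner, at 6.15 kb upstream in replicate 1 (17 fragments) and at 16.3 kb upstream and 9.59 kb downstream in replicate 2 (13 and 11 fragments). Mir22, on chromosome 11 at 75463716 to 75463810 on the plus strand in exon 2 of 3 of Mir22hg and, in GENCODE, also within Tlcd2, had 0 peaks in either list, although 8 other curated genes lie in its window. Its nearest peaks were 78.1 kb downstream in replicate 1 and 67.8 kb downstream in replicate 2, and the nearest shared region, in an intron of Slc43a2, had folds of 7.15 and 10.4.

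Mir33, on chromosome 15 at 82198122 to 82198190 on the plus strand, lies in intron 16 of Srebf2, the gene of a transcription factor that raises cholesterol synthesis and uptake. The hairpin had 0 peaks within 50 kb, and the start site of Srebf2, 50.9 kb upstream, had none within 50 kb either. The nearest peaks were 120 kb downstream in both replicates and formed a shared region with folds of 7.15 and 7.22. Mir124a-1, on chromosome 14 at 64590657 to 64590741 on the plus strand, lies in exon 4 of 4 of Mir124a-1hg. It had 2 shared regions, both near the limit of the window, at 46.9 and 49.1 kb downstream and upstream of Kif13b, the gene with the nearest start site. The first had 21 fragments in each replicate (13 to 32.1) with folds of 7.15 and 9.93, and the second had 17 and 27 (9.90 to 27.2 and 17.8 to 39.3) with folds of 5.85 and 12.6. Their summits lay 34 and 149 bp apart between replicates, so that a limit of 100 bp between summits would keep the first.

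Of the 12 shared regions, 7 were in introns and 5 in intergenic sequence. These features were not counted over all shared regions, so they describe these loci only. None of the 12 had its mean summit in a promoter, defined as 1 kb upstream to 100 bp downstream of a curated start site. For a microRNA gene this start site, also among the nearest start sites above, is the start of the annotated hairpin. The primary transcript may start elsewhere, so a region at its promoter may be missed by this rule. The 12 regions had median folds of 7.63 and 11.3, compared with 6.82 and 9.48 over all shared regions, and median summit gaps of 22.5 and 49 bp, respectively. A partner was found for 81.2% of the 16 peaks of replicate 1 and 57.1% of the 21 peaks of replicate 2 near these genes, against 69.4% and 59.2% of all peaks. These medians and shares mostly describe the Mir21a locus, which holds 8 of the 12 regions. It also holds 9 of the 16 and 11 of the 21 peaks, of which 9 and 8 had a partner.

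Related microRNA genes and the processing machinery were counted by the same rule. Of 8 paralogs and cluster partners, 6 had a shared region within 50 kb (75%, against 33.6% of all microRNA genes, with the genes of a cluster counted separately). Mir146b had one 41.3 kb away with folds of 11.8 and 17.9 whose nearest start site is that of Nfkb2, Mir23b, Mir27b and Mir24-1 had the same one in an intron of Aopep (8.45 and 13.5), and Mir23a and Mir24-2 had the one described for Mir27a. Mir124a-2 and Mir124a-3 had 0 peaks. Of 41 other myeloid microRNA genes, 16 had a shared region (39.0%, against 33.6% of all microRNA genes). The highest smaller folds were those of Mir34a, whose top region was 7.71 kb away (18.5 and 27.5), and of the cluster of Mir125a, Mir99b and Mirlet7e, which had 4 regions each, with the same top region 41 to 41.6 kb away with Fpr1 as the nearest start site (17.2 and 20.4). Of 15 genes that make or use microRNAs, 7 had a shared region (46.7%, against 41.8% of all genes). These were Tnrc6b (top region 14 and 22.6), Ddx5 (12.3 and 19.9), Tnrc6c (10.4 and 11.7) and Ago1 to Ago4, of which Ago1 and Ago3 had the same region. No shared region was found near Drosha, Dgcr8, Dicer1, Tarbp2, Prkra, Tnrc6a, Ddx17 or Xpo5, which exports the hairpins from the nucleus. Of these, Drosha, Dgcr8, Tarbp2 and Tnrc6a had 1 peak each in replicate 2, and Ddx17 had 1 in replicate 1. Like the Ago genes, they were named after their values were seen.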

How the data were processed

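Peak lists of the 2 SMAD4 libraries were used. As the methods state, the authors removed adapters (Cutadapt), mapped to mm10 (Bowtie2), kept properly paired reads of high mapping quality without duplicates, and called peaks in each sample with MACS3 at a q-value of 0.05 against input. The deposited columns are a fold ratio over the control level, −log10 p and −log10 q at the summit, a score (10 times the −log10 q as a whole number in 16369 of 16369 and 19013 of 19015 peaks, not used here) and the summit offset. Fragments and control level at each summit were solved from the deposited fold and −log10 p, and were whole within 0.01 fragments in all peaks. The solution, the overlap and the string search were tested on simulated data.

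Curated RefSeq transcripts (45657, GRCm38.p6) gave genes, hosts and features. Lists of 17 and 10 markers, 8 paralogs, 41 microRNAs and 15 processing genes were counted with distance to the gene body. Of each gene, every shared region and the strongest peak without a partner in each replicate were to be named, and the weaker ones were added. Of the other lists, the 3 genes with the highest smaller fold of their top region were to be named. The alternating C/EBP string was added after the data were seen. The genes and lists were chosen with earlier results of these data known. No test was made, since there is 1 condition. Sequencing totals were not used. Alternatives changed the window, the start of the distance, the thresholds and the overlap. Python 3.11.15 was used with numpy 2.4.6, pandas 2.3.3, scipy 1.17.1 and pysam 0.24.0.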

Additional observations from a re-analysis of the deposited data

How the results depend on the processing

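The counts depended mainly on the window. Shares over all genes and all microRNA genes were counted for the reported setting only, so the gene counts under other settings have no background beside them. With 10 kb, 3 genes had a peak in replicate 1 and 3 in replicate 2 (6 and 8 peaks), and 1 gene, Mir21a, had shared regions (3). With 25 kb there were 10 peaks in replicate 1 and 6 shared regions, and with 100 kb there were 25 peaks in replicate 1. With distance from the host start site there were 13 peaks in replicate 2 and 7 shared regions. At Mir21a, some of these regions lie outside the window of the hairpin. When the nearest curated start site had to be that of the microRNA or its host, 2 genes kept peaks in each replicate (7 and 9 peaks) and 2 had shared regions (5). Without replicate 1 or replicate 2, no partner is asked for, and 16 to 21 peaks near 5 genes took the place of the 12 shared regions near 4. The other alternatives for these counts, q of at most 0.01 or 0.001, a fold of at least 5, any base of the peak, reciprocal overlap of 50% and summits within 100 bp, stayed within 1.5 times the reported values. No paired analysis was possible because the labels give no replicate numbers and no result comes from a test. Weak peaks rest on 9 to 17 fragments, so a site called in 1 replicate was not shown to be absent from the other. With 200 bp on each side of the summit in place of 100, matches were found in 2 of the 12 windows for the RBPJ string, 1 for NF-κB, 4 for AP-1 (13.6% of all) and 2 for STAT (14.9%). GTCTGG stayed in 4 windows, while its share of all windows rose to 21.5%. Of the alternatives, the alternating C/EBP string was added after the data were seen.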
